A study of Mus musculus with 8 samples.

Results

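The genes described here are the ADAM, ADAMTS, ADAMTS-like, MMP and TIMP genes of the mouse, and they were chosen by gene symbol. Of the 24675 genes with a symbol on the array, 83 carried a symbol of these families (34 ADAM, 18 ADAMTS, 5 ADAMTS-like, 22 MMP and 4 TIMP genes). The symbols alone made the list, but the families were picked with ventral minus dorsal differences from these same arrays in view, so the counts below are descriptions and not independent evidence. The arrays measured gene expression on the 2 sides of the aorta of C57Bl/6 mouse embryos at embryonic day 12.5, in the region where blood stem cells form. Dorsal tissue was the tissue from the notochord to the roof of the aorta, ventral tissue was that beneath the aorta, and both were laser microdissected from cryosections of the same unfixed embryos. Of the Affymetrix Mouse Gene 2.0 ST arrays, 4 were of dorsal and 4 of ventral tissue, numbered 1 to 4 in each. No mutation, transgene or treatment is named in the labels, all embryos were of this strain and age, and picogram amounts of RNA were amplified before hybridisation. The comparison asks which protease and inhibitor genes differ between the upper and the lower side of the aorta.

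MMPs and ADAMTS enzymes are zinc proteases that cut collagens, proteoglycans and other matrix proteins outside the cell. Most ADAMs sit in the cell membrane and release the outer parts of other membrane proteins, among them growth factors, cytokines and Notch receptors. TIMPs are secreted inhibitors that occupy the active site, and Timp3, which binds to the matrix, also blocks several ADAM and ADAMTS enzymes. Around the embryonic aorta these proteases are known for matrix turnover and for the release of ligands held at the cell surface.

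Promoter letters are shown first for 4 members that were higher in ventral tissue and, for contrast, for 2 collagen- and matrix-degrading MMPs that stayed under the median of every array. Each line gives the 250 bases before the annotated start of transcription, from RefSeq on GRCm38.p6, written 5′ to 3′ on the gene's strand. Capitals mark a GC box (GGGCGG, the letters bound by Sp1), a TATA box (TATAAA) or an AP-1 site (TGANTCA), each searched on both strands. The windows are chr16:85803114-85803363 on the minus strand for Adamts1, chr6:92943535-92943784 on the minus strand for Adamts9, chr14:54431348-54431597 on the plus strand for Mmp14 and chr9:70678732-70678981 on the plus strand for Adam10. Those of Mmp3 and Mmp13 are chr9:7445572-7445821 and chr9:7272264-7272513, both on the plus strand.
Adamts1: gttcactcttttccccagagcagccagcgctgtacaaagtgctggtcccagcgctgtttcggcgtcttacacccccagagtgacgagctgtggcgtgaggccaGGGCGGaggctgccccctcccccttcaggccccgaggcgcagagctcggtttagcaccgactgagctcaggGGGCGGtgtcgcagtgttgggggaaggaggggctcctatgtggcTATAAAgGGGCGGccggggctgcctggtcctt
Adamts9: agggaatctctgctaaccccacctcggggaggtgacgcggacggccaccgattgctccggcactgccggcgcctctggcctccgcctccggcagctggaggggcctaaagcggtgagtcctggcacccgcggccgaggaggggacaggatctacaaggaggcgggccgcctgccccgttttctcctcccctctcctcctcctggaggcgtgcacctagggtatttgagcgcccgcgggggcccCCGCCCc
Mmp14: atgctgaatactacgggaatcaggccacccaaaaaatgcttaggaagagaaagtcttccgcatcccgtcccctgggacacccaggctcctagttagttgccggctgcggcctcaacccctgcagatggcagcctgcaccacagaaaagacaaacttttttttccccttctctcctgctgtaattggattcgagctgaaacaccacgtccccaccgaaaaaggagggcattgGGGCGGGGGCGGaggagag
Adam10: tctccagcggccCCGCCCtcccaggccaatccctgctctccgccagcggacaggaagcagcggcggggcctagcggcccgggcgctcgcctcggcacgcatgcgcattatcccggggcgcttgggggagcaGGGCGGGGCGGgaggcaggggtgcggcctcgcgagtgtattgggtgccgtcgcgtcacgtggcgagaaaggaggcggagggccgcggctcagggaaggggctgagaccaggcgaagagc
Mmp3: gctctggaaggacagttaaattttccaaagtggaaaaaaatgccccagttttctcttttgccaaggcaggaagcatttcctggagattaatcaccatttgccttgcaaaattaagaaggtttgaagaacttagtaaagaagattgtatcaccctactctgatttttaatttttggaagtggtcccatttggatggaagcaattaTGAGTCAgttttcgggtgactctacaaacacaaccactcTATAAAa
Mmp13: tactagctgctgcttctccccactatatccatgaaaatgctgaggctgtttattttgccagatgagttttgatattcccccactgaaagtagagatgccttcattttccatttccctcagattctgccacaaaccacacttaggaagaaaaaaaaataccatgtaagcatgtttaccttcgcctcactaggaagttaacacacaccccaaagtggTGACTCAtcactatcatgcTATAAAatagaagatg

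The ventral-high windows shown here held GC boxes, and the windows of Mmp3 and Mmp13 held AP-1 and TATA letters. Shares were not compared between ventral-high and other tested members. There were 3 GC boxes and 1 TATA box for Adamts1, 1 GC box for Adamts9, 2 for Mmp14 and 3 for Adam10, some of which overlap. Mmp3 and Mmp13 each had 1 AP-1 site and 1 TATA box and no GC box. The AP-1 letters began 46 bases before the start of Mmp3 and 35 bases before that of Mmp13. The TATA letters began 7, 16 and 32 bases before the annotated starts of Mmp3, Mmp13 and Adamts1. A window was found for 52 of the 83 members (57 windows, as some genes have several), and was not used for the others, which include Adam12, Adamts5 and Mmp2. Among the 24 windows of members tested here, 58.3% held a GC box, 4.17% AP-1 letters and 12.5% a TATA box. Among the 33 windows of members that were not tested because of low values, 24.2% held a GC box, 33.3% AP-1 letters and 30.3% a TATA box. In all 32851 windows of this length the shares were 32.7%, 6.75% and 12.4%. The median share of G and C was 63.2% in the windows of tested members, 42.0% in those of untested members and 52.4% over all windows. Of the 12 members with AP-1 letters, 11 were under the median of every array (Mmp1a, Mmp1b, Mmp3, Mmp7, Mmp10, Mmp12, Mmp13, Mmp20, Adam20, Adam25 and Adam29). The other was Adam19, which was itself higher in ventral tissue, with a difference of 0.75. The 8 MMP genes among the 12 lie in 1 cluster, so their windows are not independent. A match is a description of letters, and binding was not measured.

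Values are log2 intensities as deposited, differences are ventral minus dorsal, and errors of means are SD over 4 arrays. A gene was tested if it lay above the array's median (3.59 to 3.65) on at least 4 of the 8 arrays, which 12416 genes and 35 of the 83 members did. Of the other 48 members, 43 were above the median on no array and 5 on 1 to 3 arrays, and their differences ran from -0.45 (Adam1a) to 0.35 (Adam3). Of the 35 tested, 24 were above the median on all 8 arrays, and 0 members passed with no dorsal array above it. Adam19 passed with 1 dorsal and 4 ventral arrays above the median, and Adamts5 with 2 dorsal and 4 ventral arrays. Their ventral arrays alone met the filter, so their place among the members tested is not independent of their direction. The test was limma's moderated test with the replicate number as a block, adjusted by Benjamini-Hochberg over all 12416 genes. The labels call the arrays biological replicates, but no source says that a replicate number stands for 1 embryo or litter. The p-values therefore reflect the spread among these arrays, which may be partly technical. In whole pieces of tissue, fewer cells of a type and less RNA per cell cannot be told apart.

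More members lay higher under the aorta than above it, but none passed the adjusted test. With limma 0 members were called at an adjusted p under 0.05, against 0% of all tested genes, and the smallest adjusted p of any gene was 0.0717. The unadjusted p was under 0.05 for 12 members, or 34.3% of the 35 tested, against 8.26% of all tested genes. Of these, 10 were higher in ventral tissue, against 4.08% of all genes tested: Adam12, Mmp14, Adamts9, Adamts5, Adam19, Adam10, Adamts1, Timp3, Mmp2 and Timp1. The 2 that were lower, against 4.18%, were Adamts17 and Adamts15. The 4 ventral arrays lay above all 4 dorsal arrays for 5 members (Adam12, Mmp14, Adam10, Adamts1 and Adam19), where 2.01% of all tested genes did so. They lay below all 4 dorsal arrays for 1 member, Adamts15, where 2.38% did. The median difference was 0.17 over the 35 members tested and -0.00 over all genes tested. Over all 83 members it was 0.05, with 54 (65.1%) above 0. Over all genes with a symbol it was -0.00, with 49.9% above 0. These medians depend on single arrays: that of the members tested was 0.065 without ventral array 2, 0.082 without ventral array 3 and 0.090 without dorsal array 1, and that of all 83 members was 0.018 without ventral array 2.

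**Figure D1:**
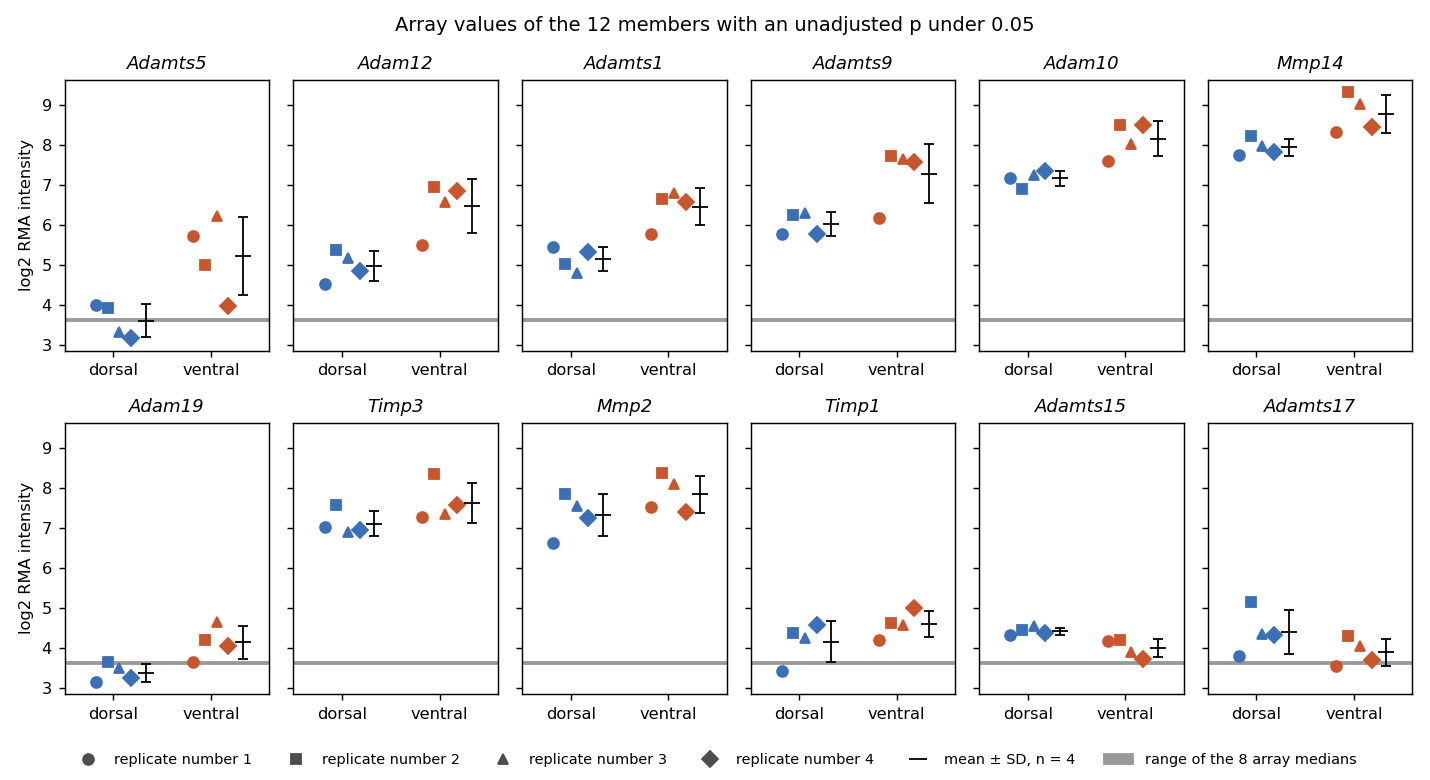
Array values (log2 RMA intensity, vertical axis) of the 12 members with an unadjusted p under 0.05 in dorsal (blue) and ventral (orange) tissue, with a symbol for each replicate number, the mean ± SD of 4 arrays and a grey band for the range of the 8 array medians. In Adam12, Mmp14, Adam10, Adamts1 and Adam19 every ventral array lies above every dorsal array, and ventral array 1 is the lowest ventral array in 8 of the 10 members that were higher in ventral tissue.

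The proteoglycan-cleaving ADAMTS enzymes, which cut aggrecan and versican, held the widest difference of any member. Of their 7 genes 5 were tested, and Adamts5, Adamts1 and Adamts9 were higher and Adamts15 lower in ventral tissue at an unadjusted p under 0.05. The median difference was 1.26 over the 5 tested and 0.17 over all 7. Adamts5 met the filter by its ventral arrays alone, so the median of the 5 is not independent of direction. Adamts5, a main aggrecanase of cartilage, had dorsal values of 4.01, 3.91, 3.33 and 3.18 and ventral values of 5.72, 4.99, 6.23 and 3.97 in arrays 1 to 4. Ventral array 4 lay within the dorsal range, and the other 3 ventral arrays lay above it. The difference was 1.62 (SE 0.34, 95% interval 0.82 to 2.42, limma adjusted p = 0.241). No fold is given, because 2 dorsal arrays were under the array medians.

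Adamts1, a secreted versicanase that also binds the growth factor VEGF, stood at 5.45, 5.03, 4.79 and 5.32 in dorsal arrays and at 5.78, 6.65, 6.81 and 6.57 in ventral arrays. The groups did not overlap, and ventral array 1 was closest to the dorsal arrays. The means were 5.15 ± 0.30 and 6.45 ± 0.46 (SD, n = 4), a 2.47-fold difference of 1.31 (SE 0.29, 95% interval 0.63 to 1.98, limma adjusted p = 0.251). Adamts1 and Adamts5 are next to each other in the genome, with 0 protein-coding genes between them in RefSeq's order. They differed in which ventral array was lowest, array 1 for Adamts1 and array 4 for Adamts5.

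Adamts9, a versicanase with a long row of thrombospondin repeats, read 5.77, 6.24, 6.30 and 5.78 in dorsal arrays and 6.18, 7.72, 7.66 and 7.58 in ventral arrays. Ventral array 1 lay inside the dorsal range, and the other 3 were more than 1 log2 unit above every dorsal array. The means were 6.02 ± 0.29 and 7.28 ± 0.74 (SD, n = 4), a 2.40-fold difference of 1.26 (SE 0.25, limma adjusted p = 0.221).

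Adamts15, another member that cuts versican and aggrecan, went the other way. Dorsal arrays read 4.34, 4.44, 4.54 and 4.37, and ventral arrays 4.18, 4.21, 3.91 and 3.73. Every ventral array was below every dorsal array, over a narrow range. The difference was -0.42 (SE 0.17, 95% interval -0.81 to -0.02, limma adjusted p = 0.578). Adamts4, an aggrecanase, differed by 0.17 with an interval of -0.63 to 0.98, and Adamts8 and Adamts20 were under the median of every array. Versican (Vcan), the main embryonic proteoglycan target of these enzymes, differed by -0.10 (SE 0.12). Aggrecan (Acan), the proteoglycan of cartilage, read 4.50, 7.65, 6.66 and 5.29 in dorsal arrays and 3.33, 3.27, 3.69 and 3.03 in ventral arrays. The difference was -2.69 (SE 0.47, limma adjusted p = 0.202), and only 1 ventral array was above the array median. Of the other proteoglycans listed, Bcan differed by 0.09 and Ncan by -0.80, and neither was tested.

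Among the remaining ADAMTS genes only Adamts17 had an unadjusted p under 0.05. Adamts17, an ADAMTS tied to fibrillin fibres, read 3.81, 5.14, 4.35 and 4.34 in dorsal arrays and 3.55, 4.30, 4.05 and 3.70 in ventral arrays. The groups overlapped, but the ventral array was the lower in each of the 4 numbers. The difference was -0.51 (SE 0.17, limma adjusted p = 0.472), and -0.26 without dorsal array 2. Adamts12 and Adamts7, which cut the cartilage protein COMP, differed by -0.31 (95% interval -0.70 to 0.07) and -0.06 (95% interval -0.56 to 0.45). Adamts18, Adamts6, Adamts10 and Adamts19 differed by 0.25, 0.20, 0.17 and -0.06, and Adamts16 was under the median of every array. Of the procollagen N-proteinases, which trim fibrillar procollagens, Adamts3 was under the median of every array and Adamts14 above it on 3 arrays. Adamts13, the protease of von Willebrand factor, was under the median of every array. The ADAMTS-like genes, matrix proteins without a protease domain, gave 3 tested members of 5. These were Adamtsl4 (-0.25), Adamtsl2 (-0.04) and Adamtsl1 (0.05), while Adamtsl3 was above the median on 3 arrays and Adamtsl5 on 1.

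Of the ADAMs made in many tissues, the somatic sheddases, 6 of 9 were tested, and 3 had an unadjusted p under 0.05, all higher in ventral tissue. The median difference was 0.50 over the 6 tested and 0.14 over all 9. Adam19 met the filter by its ventral arrays alone, so the median of the 6 is not independent of direction. Adam12, a sheddase of developing muscle, bone and mesenchyme that releases the growth factor HB-EGF, had the smallest p of all members and ranked 19 among all tested genes. Its dorsal values were 4.53, 5.38, 5.17 and 4.84, and its ventral values 5.49, 6.96, 6.58 and 6.86. Ventral array 1 lay 0.11 above the highest dorsal array, and the other ventral arrays lay well clear of the dorsal ones. The means were 4.98 ± 0.37 and 6.47 ± 0.67 (SD, n = 4), a 2.81-fold difference of 1.49 (SE 0.22, 95% interval 0.98 to 2.00, limma adjusted p = 0.144).

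Adam10, the main sheddase of Notch receptors, read 7.18, 6.90, 7.25 and 7.33 in dorsal arrays and 7.59, 8.50, 8.03 and 8.51 in ventral arrays. The groups did not overlap. The means were 7.17 ± 0.19 and 8.16 ± 0.44 (SD, n = 4), a 1.99-fold difference of 0.99 (SE 0.21, 95% interval 0.49 to 1.50, limma adjusted p = 0.249). Adam17, the sheddase of TNF and of several EGF receptor ligands and the closest relative of Adam10, read 5.73, 6.26, 6.13 and 6.12 in dorsal arrays and 6.26, 5.88, 5.96 and 5.72 in ventral arrays. The ranges lay almost on top of each other. The difference was -0.11 (95% interval -0.61 to 0.40, limma adjusted p = 0.946), and the contrast between Adam10 and Adam17 was not tested.

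Adam19, a sheddase of neuregulins with a part in heart development, read 3.16, 3.65, 3.50 and 3.24 in dorsal arrays and 3.65, 4.20, 4.66 and 4.05 in ventral arrays. The lowest ventral and the highest dorsal array were almost equal, and 3 of the 4 dorsal arrays were under the array medians, so no fold is given. The difference was 0.75 (SE 0.16, limma adjusted p = 0.241). Adam9 and Adam15, sheddases of wide expression, differed by 0.25 (95% interval -0.14 to 0.63) and 0.14 (95% interval -0.20 to 0.48). Adam9 was higher in ventral tissue in 4 of 4 numbers. Adam28 and Adam33 were under the median of every array, and Adam8, a sheddase of myeloid cells, was above it on 2 arrays, both ventral.

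The ADAMs of the nervous system, which lack a working catalytic site and act as receptors and synaptic partners, had 3 tested members of 3, none at an unadjusted p under 0.05. Adam23 differed by 0.61 (SE 0.44), with dorsal values of 4.01, 3.74, 4.12 and 3.88 and ventral values of 6.48, 3.50, 4.47 and 3.72. The height of its ventral mean came from ventral array 1. On that array the mean of 5 sympathoadrenal marker genes was also the highest of all arrays, at 7.06, against 4.52 to 6.04 on the other ventral arrays and 4.58 to 5.08 on the dorsal ones. The part of such cells in the Adam23 value was not tested. Adam22 and Adam11 differed by 0.19 and 0.02. Of the 22 ADAMs of the reproductive tract and other ADAMs, 20 were under the median of every array. Adam1a was above it on 3 arrays, and Adam6a, the tested member, differed by 0.12. Adam6a has a near copy, Adam6b, next to it, so its probes may read both.

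**Figure D2:**
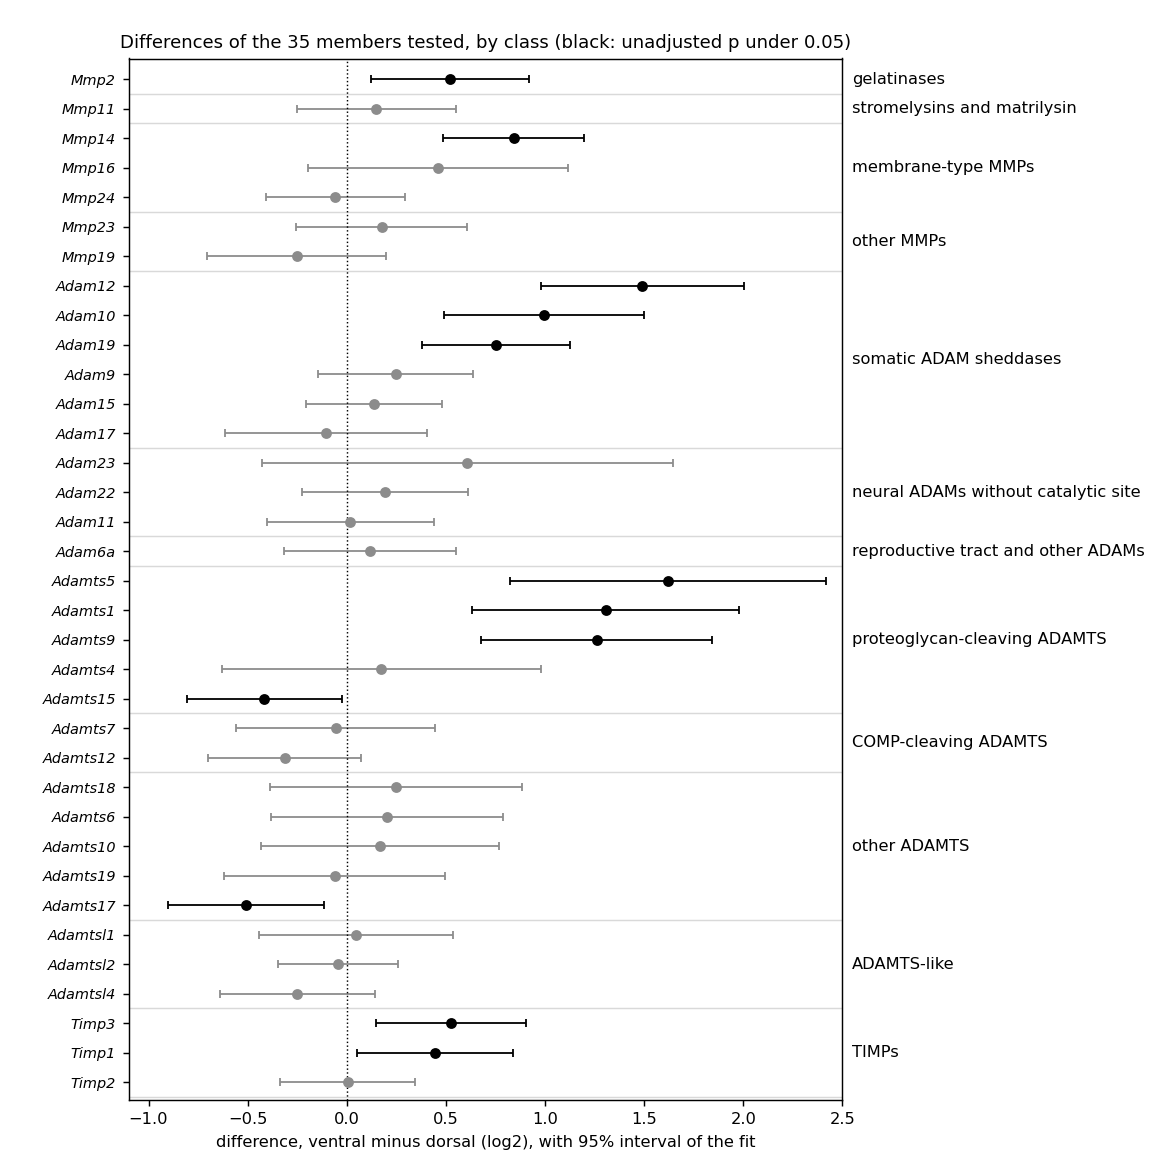
Difference, ventral minus dorsal (log2, horizontal axis), of the 35 members tested, with the 95% interval of the limma fit, grouped by class. Black marks the 12 members with an unadjusted p under 0.05, which run from -0.51 (Adamts17) to 1.62 (Adamts5), and grey intervals all cross 0.

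The MMPs were split between a few genes seen on all arrays and many under the array medians. Of 22 MMPs with a value, 7 were tested and 15 were above the median on no array. Mmp14, the membrane-type collagenase that also activates Mmp2, had dorsal values of 7.74, 8.23, 7.96 and 7.82 and ventral values of 8.32, 9.32, 9.02 and 8.46. All 4 ventral arrays were above the 4 dorsal ones, with a gap of 0.09 between ventral array 1 and dorsal array 2. The means were 7.94 ± 0.21 and 8.78 ± 0.47 (SD, n = 4), a 1.79-fold difference of 0.84 (SE 0.15, 95% interval 0.49 to 1.20, limma adjusted p = 0.207).

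Mmp2, the gelatinase that Mmp14 activates, read 6.63, 7.86, 7.55 and 7.26 in dorsal arrays and 7.52, 8.38, 8.09 and 7.40 in ventral arrays. The groups overlapped, but the ventral array was the higher in 4 of 4 numbers. The difference was 0.52 (SE 0.17, 95% interval 0.12 to 0.92, limma adjusted p = 0.460), and it was 0.29 without dorsal array 1 and 0.35 without ventral array 2. Mmp9, the other gelatinase, was under the median of every array. Mmp16 and Mmp24, further membrane-type MMPs, differed by 0.46 (95% interval -0.20 to 1.12) and -0.06 (95% interval -0.41 to 0.29), and Mmp17 and Mmp25 were under the median of every array.

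All 4 secreted collagenases (Mmp1a, Mmp1b, Mmp8 and Mmp13) were under the median of every array, as were Mmp3, Mmp10 and Mmp7 of the stromelysins and matrilysin. Mmp11, an atypical stromelysin of mesenchyme, differed by 0.15 (95% interval -0.25 to 0.55). Of the other MMPs, Mmp23 differed by 0.18 and Mmp19 by -0.25 (95% interval -0.70 to 0.20), and Mmp12, Mmp20, Mmp21, Mmp27 and Mmp28 were under the median of every array. In RefSeq's order Mmp13, Mmp12, Mmp1b, Mmp3, Mmp1a, Mmp10, Mmp8, Mmp27, Mmp20 and Mmp7 follow each other with 0 protein-coding genes between them. Every gene of this cluster with a value was thus under the array medians in both tissues.

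Of the 4 TIMP genes 3 were tested, and Timp3 and Timp1 had an unadjusted p under 0.05, both higher in ventral tissue. Timp3, the TIMP held in the matrix, read 7.03, 7.58, 6.90 and 6.94 in dorsal arrays and 7.27, 8.36, 7.34 and 7.58 in ventral arrays. The groups overlapped, and the ventral array was the higher in 4 of 4 numbers. The difference was 0.53 (SE 0.16, 95% interval 0.15 to 0.90, limma adjusted p = 0.435), and 0.28 without ventral array 2. Timp1, an inducible inhibitor, read 3.43, 4.37, 4.25 and 4.59 in dorsal arrays and 4.21, 4.62, 4.58 and 5.01 in ventral arrays. Its groups overlapped too, with a difference of 0.44 (SE 0.17, 95% interval 0.05 to 0.84, limma adjusted p = 0.548), or 0.20 without dorsal array 1.

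Timp2, which forms the complex through which Mmp14 activates Mmp2, read 7.30, 8.21, 7.90 and 7.67 in dorsal arrays and 7.45, 8.11, 8.05 and 7.49 in ventral arrays. The ventral range lay inside the dorsal range, and 2 numbers were higher and 2 lower. The difference was 0.00 (SE 0.14, 95% interval -0.34 to 0.35, limma adjusted p = 0.997). Timp4 read 3.02, 2.84, 2.87 and 3.04 in dorsal arrays and 3.15, 3.05, 3.33 and 2.92 in ventral arrays, under the median of every array. Against these inhibitors stood 29 tested proteases and ADAMs, of which 21 had a difference above 0 and 8 below, with a median of 0.18. Of all genes tested, 49.2% had a difference above 0. Over all 74 proteases and ADAMs with a value, 47 were above 0 and 27 below, with a median of 0.05. The median of the TIMPs was 0.44 over the 3 tested and 0.31 over all 4.

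Within an array, the distance between a protease and its inhibitor can be followed from tissue to tissue, though not read as a ratio of their amounts. These pairs were chosen after their values were seen. Timp2 itself differed by 0.00, so its pairs largely repeat the differences of Mmp14 (0.84) and Mmp2 (0.52). Mmp14 did not overlap on its own, which largely fixes the outcome of its pair with Timp2. How often other genes would separate in the same way when set against Mmp14 or Mmp2 was not computed. Mmp14 minus Timp2 was 0.45, 0.02, 0.06 and 0.15 on dorsal arrays and 0.87, 1.22, 0.98 and 0.96 on ventral arrays. The groups did not overlap, and the distance was 0.84 greater in ventral tissue (SD 0.32 over the 4 numbers). Mmp2 minus Timp2 was -0.67, -0.35, -0.35 and -0.41 on dorsal arrays and 0.07, 0.27, 0.05 and -0.09 on ventral arrays, again without overlap and 0.52 greater in ventral tissue (SD 0.19). Single values of Mmp2 overlapped between the tissues, while its distance to Timp2 did not. Whether this is particular to Timp2 was not tested.

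Reck, a membrane-anchored inhibitor of Mmp14 and Adam10, read 7.48, 7.60, 7.41 and 7.04 in dorsal arrays and 6.58, 7.26, 7.25 and 6.84 in ventral arrays. Its groups overlapped, with a difference of -0.40 (SE 0.18, limma adjusted p = 0.632). Mmp14 minus Reck ran from 0.26 to 0.77 on dorsal and from 1.62 to 2.06 on ventral arrays, a distance 1.24 greater in ventral tissue (SD 0.29). Mmp14 alone was 0.84 higher. Mmp14 minus Timp3 overlapped between the tissues, at 0.65 to 1.06 and 0.88 to 1.69. The distances of Adam10, Adamts1, Adamts5 and Adamts9 to Timp3 were 0.47, 0.78, 1.09 and 0.73 greater in ventral tissue, and each of these overlapped as well.

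**Figure D3:**
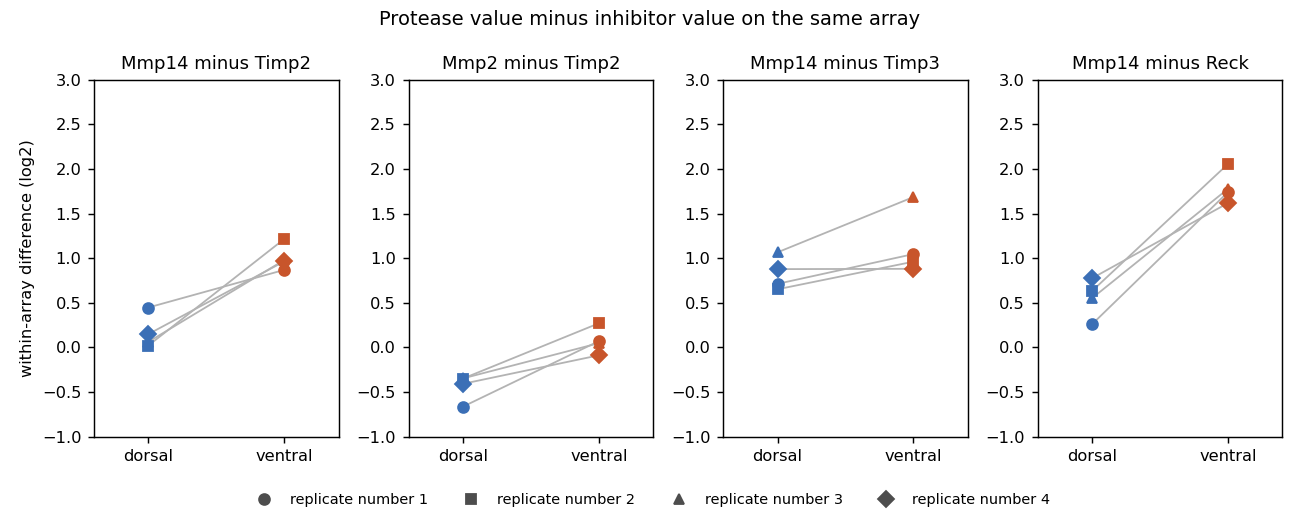
Value of a protease minus that of an inhibitor on the same array (log2, vertical axis) for 4 pairs in dorsal and ventral tissue, with lines joining the arrays of 1 replicate number. Mmp14 minus Timp2, Mmp2 minus Timp2 and Mmp14 minus Reck do not overlap between the tissues, while Mmp14 minus Timp3 does (0.65 to 1.06 against 0.88 to 1.69); the height of a pair has no meaning of its own, only its change between the tissues.

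Genes that act with the families were described from a list of 49 activators, other inhibitors, ADAM regulators, cofactors, substrates and related proteases. Of these 46 had a value and 30 were tested, with a median difference of 0.01. At an unadjusted p under 0.05, 2 were higher and 3 lower, 16.7% of those tested against 8.26% of all genes. Tspan14, a tetraspanin that carries Adam10 to the cell surface, read 5.07, 5.01, 5.36 and 4.82 in dorsal arrays and 5.15, 5.81, 5.88 and 5.73 in ventral arrays. As with Adam10, ventral array 1 was the lowest ventral array, and here it lay inside the dorsal range. The difference was 0.58 (SE 0.20, limma adjusted p = 0.519). The tetraspanins Tspan5 and Tspan17, further partners of Adam10, differed by -0.28 and -0.17.

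Pcsk5, a proprotein convertase that can cut the propeptides of metalloproteases, read 4.97, 5.83, 5.51 and 4.69 in dorsal arrays and 4.63, 4.72, 4.74 and 4.42 in ventral arrays. The difference was -0.62 (SE 0.21, limma adjusted p = 0.479), and ventral arrays 2 and 3 lay just above the lowest dorsal array. Furin, the convertase best known for activating Mmp14 and many ADAMs, differed by -0.11. Plat, the tissue plasminogen activator, differed by 0.78 (SE 0.45, limma adjusted p = 0.731) and was lower, not higher, in number 1. Of the collagens that MMPs cut, Col1a2, a chain of type I collagen, was 0.60 higher in ventral tissue without overlap (limma adjusted p = 0.363). Col1a1, the other type I chain listed, overlapped, with a difference of 0.46 (limma adjusted p = 0.777), as did Col3a1 with 0.17. Col2a1, the collagen of cartilage, was lower by 2.69 on the log2 scale, without overlap (SE 0.31, limma adjusted p = 0.0717).

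Markers of several cell types differed between the tissues on average, though none passed the adjusted test. Of the markers tested, all 7 of sclerotome and cartilage were lower and all 6 of smooth muscle, all 10 of macrophages, 5 of 6 of visceral mesenchyme, all 5 of sympathoadrenal cells and all 4 of the notochord were higher on average in ventral tissue. The mean of the visceral mesenchyme list was 4.52 to 5.31 on dorsal and 5.51 to 6.59 on ventral arrays, and that of the macrophage list 4.65 to 4.98 and 5.12 to 5.68. The smooth muscle list gave 4.57 to 5.12 on dorsal arrays, 4.91 on ventral array 1 and 5.57 to 6.54 on the other ventral arrays. The sclerotome list gave 5.65 to 7.05 on dorsal and 4.37 to 4.67 on ventral arrays. The notochord list overlapped, at 3.93 to 4.78 on dorsal and 4.15 to 4.63 on ventral arrays, although the notochord borders the dorsal tissue. It held no value for T, and Noto was under the median of every array. The differences of its tested markers were small beside their errors. They were 0.05 (SE 0.13) for Foxa2, 0.17 (SE 0.29) for Krt8, 0.29 (SE 0.26) for Shh and 0.32 (SE 0.27) for Krt19. The sympathoadrenal list overlapped too, with ventral array 2 (4.52) under every dorsal array (4.58 to 5.08). Of the tested markers, 4 of 5 of skeletal muscle and 4 of 5 of red cells were lower. Among the coelomic epithelium markers 3 of 5 were higher. The 2 tested markers of granulocytes and mast cells, S100a8 and S100a9, differed by 0.09 and 0.12, each higher in 2 of 4 numbers. In the untested rest of that list, Mpo, Cpa3 and Cma1 differed by -0.31, -0.19 and -0.10. Elane and Ly6g, also untested, differed by 0.05 and 0.00. Endothelial markers overlapped (4.63 to 6.34 and 5.40 to 6.04). The part of these cells in the protease differences was not tested. Dorsal array 1 stood apart by neural markers, with a list mean of 7.77 against 3.90 to 4.47 on the other dorsal arrays.

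**Figure D4:**
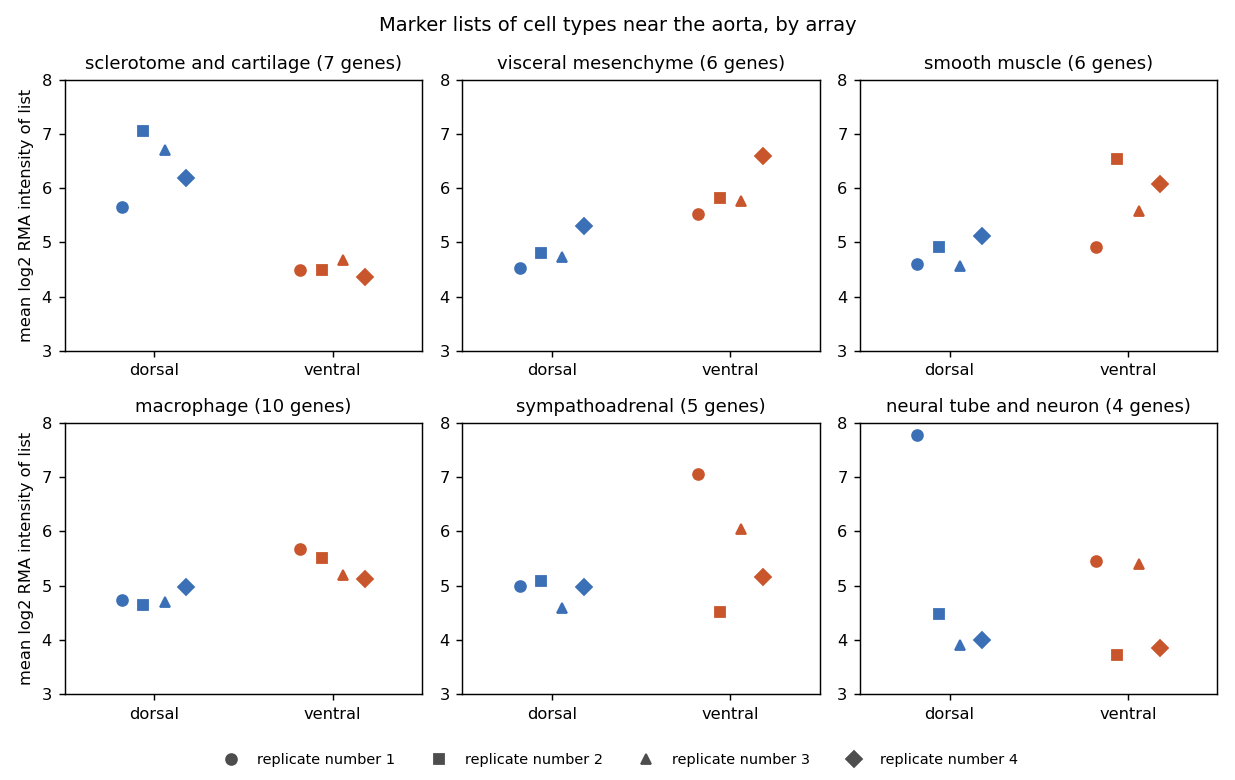
Mean log2 RMA intensity (vertical axis) of the tested genes of 6 marker lists on each dorsal (blue) and ventral (orange) array, with a symbol for each replicate number. Smooth muscle markers are lowest among ventral arrays on array 1 (4.91), neural markers stand out on dorsal array 1 (7.77), and sympathoadrenal markers on ventral array 1 (7.06).

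The 10 members with an unadjusted p under 0.05 and higher values in ventral tissue were higher in each of the 4 replicate numbers, which their choice by this fit largely fixes. The median of their differences was 0.53, 1.09, 1.11 and 0.80 in numbers 1 to 4. Of all 35 members tested, 24, 23, 26 and 19 were higher in numbers 1 to 4. Their median differences were 0.24, 0.19, 0.31 and 0.04, against -0.015, -0.026, -0.003 and 0.024 over all genes tested. The share of all genes that were higher in each number was not computed. By the mean difference it was 49.2% of the genes tested. Ventral array 1 was the lowest ventral array for 8 of the 10, all but Adamts5 and Mmp2, for which it was array 4. Ventral array 1 also had the lowest ventral level of the smooth muscle and the visceral mesenchyme lists, but the highest of the macrophage (5.68) and endothelium (6.04) lists. Dorsal array 1 was the lowest dorsal array for 6 of the 10 (Adam12, Adam19, Adamts9, Mmp14, Mmp2 and Timp1). Without ventral array 1, in a fit with no replicate block, limma called 20 of all genes tested, 3 of them members: Adamts9 with a difference of 1.63 (adjusted p = 0.0292), Adam12 with 1.82 (adjusted p = 0.0347) and Adamts1 with 1.53 (adjusted p = 0.0365). With all 8 arrays and no replicate block 4 genes and 0 members were called. Without number 1 in both tissues, with the block kept, 9 genes and 0 members were called. Leaving out any other single array called 0 members.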

How the data were processed

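Expression was measured on 8 arrays, 4 of dorsal and 4 of ventral tissue. The deposited values are log2 intensities made by the authors with Affymetrix Expression Console and RMA, per the submitters' processing notes; versions, array definition and genome build are not given in the sources used here. RMA makes the arrays' distributions equal, so every difference is measured against the rest of the array. Of 25429 entries 24675 had 1 gene symbol, and each member had 1 entry. Adamts2 and Mmp15 were not analysed here. Genes whose value exceeded the array's own median on 4 or more arrays were fitted with limma 3.58.1 in R 4.3.3 (lmFit, then trended, robust eBayes) with tissue and replicate number as fixed effects, two-sided, Benjamini-Hochberg over 12416 genes, threshold 0.05. The script was tested on simulated data. Alternatives changed the block, filter, moderation, array weights and centring and left out arrays.

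Per the labels' protocols dorsal and ventral pieces shared their embryos. Deviations of same-numbered arrays correlated at r = 0.11, 0.03, 0.02 and 0.12 across genes. Members, classes, partners and markers were chosen with earlier results of these data known. Members are named with all array values at an unadjusted p under 0.05 (at most 12 in each direction), together with all TIMPs, Mmp2, Mmp14, Adam10, Adam17, Adamts1, Adamts5 and Adamts9, the 2 greatest differences of each class and partners at an unadjusted p under 0.05. Other members named were chosen after their values were seen. The number of arrays limits the precision.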

Additional observations from a re-analysis of the deposited data

Results flagged for a closer look

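Of 64 sets of 4 arrays of a named gene, 2 had an array far from the other 3, and chance sets apart about 1 set in 20. Adamts9 read 6.18 on ventral array 1 and 7.58 to 7.72 on the other ventral arrays. Mmp19 read 4.75 on dorsal array 4 and 3.63 to 3.76 on the other dorsal arrays.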

How the results depend on the processing

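The results were computed again under 19 other settings where these applied. Over all genes, limma called 4 with no replicate block, 4 with a random replicate block and 10 with a stricter filter, and 0 to 20 when arrays were left out. Of the members, 0 to 3 were called when arrays were left out (3 only without ventral replicate 1, where 20 of all genes were called) and 0 under the other settings. The fixed replicate block changed no member's call. Members higher at an unadjusted p under 0.05 numbered 7 with no replicate block, 11 with no filter and 7 to 10 when arrays were left out. Members lower numbered 1 with no replicate block, 1 with a random replicate block, 0 with the stricter filter and 0 to 2 when arrays were left out. The median difference of members tested was 0.047 with no filter and 0.52 with the stricter filter, which test other sets of members. The sign turned when arrays were left out for Timp2 (-0.15 to 0.15), Adam22 (-0.019 to 0.33), Adam23 (-0.037 to 0.95), Adamts18 (-0.091 to 0.57), Adamts7 (-0.18 to 0.20), Adamtsl1 (-0.15 to 0.24) and Mmp19 (-0.38 to 0.0086); the cause was not tested. Settings were run for the 32 genes that the naming rule takes, and the other 25 of these kept their direction; further genes named were not run. Values under the array medians are limited by background.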
